A study of Mus musculus with 12 samples.

Results

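The actin genes of mouse cardiomyocytes (CMs) were followed through loss of serum response factor (SRF): Actc1, Acta1, Acta2, Actg2, Actb and Actg1, taken by gene symbol from the deposited count tables, 6 of the 23337 genes that the tables list. RNA was sequenced from 12 samples of sorted CMs in 4 groups of 3. P14 KO and P14 CTRL hearts had received the Cre virus AAV9-cTNT-Cre at postnatal day (P) 1 and were collected at P14, and P90 KO and P90 CTRL hearts had received it at P60 and were collected at P90. KO animals were Srf-flox/flox and CTRL animals Srf-flox/+, so CTRL CMs also saw virus and Cre but kept an intact Srf copy. All of them carried a fluorescent reporter that Cre switches on, which the study's methods give as Cas9GFP, tdTomato or mTmG. The cardiac troponin T (cTNT) promoter drives Cre in CMs, the low virus dose left most CMs of a heart untouched, and only CMs with the reporter on were sorted.

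Actin is the protein of the thin filament that myosin pulls on in the sarcomere, and it also forms the cytoskeleton of every cell. In mammals it is encoded by a small gene family: the sarcomeric alpha-actins of heart (Actc1) and skeletal muscle (Acta1), the smooth muscle actins (Acta2 and Actg2), and the cytoplasmic beta- and gamma-actins (Actb and Actg1). SRF binds DNA at the CArG box and has long been known to activate actin genes. Myocardin family cofactors bring it to many of its targets, and the myocardin-related factors among them sense free actin monomer.

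The CArG box has the letters CC, then 6 bases that are each A or T, then GG. It was searched on both strands in the 250 bases upstream of the RefSeq start of each gene (build GRCm38.p6), a window found for Actc1, Acta1, Acta2 and Actg1, that is for 4 of the 6 actin genes. These windows are shown because the responses described below can be read against the SRF motif in them. They are printed 5′ to 3′ along the gene, in lower case, with CArG boxes in capitals, both exact boxes and boxes with 1 mismatch.
Actc1, chr2:114052876-114053125, minus strand: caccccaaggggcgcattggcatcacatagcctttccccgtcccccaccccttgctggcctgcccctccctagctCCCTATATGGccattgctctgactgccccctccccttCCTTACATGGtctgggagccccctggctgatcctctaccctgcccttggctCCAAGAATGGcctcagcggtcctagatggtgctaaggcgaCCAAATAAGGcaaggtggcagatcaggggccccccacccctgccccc
Acta1, chr8:123894776-123895025, minus strand: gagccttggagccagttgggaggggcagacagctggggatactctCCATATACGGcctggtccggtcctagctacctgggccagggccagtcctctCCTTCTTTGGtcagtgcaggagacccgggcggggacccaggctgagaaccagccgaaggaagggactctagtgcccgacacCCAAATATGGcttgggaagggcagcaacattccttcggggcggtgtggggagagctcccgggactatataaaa
Acta2, chr19:34255374-34255623, minus strand: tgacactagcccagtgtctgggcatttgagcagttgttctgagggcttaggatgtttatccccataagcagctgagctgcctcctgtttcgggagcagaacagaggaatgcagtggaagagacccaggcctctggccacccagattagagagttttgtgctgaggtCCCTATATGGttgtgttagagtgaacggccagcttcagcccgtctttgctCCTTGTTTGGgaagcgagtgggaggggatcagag
Actg1, chr11:120348496-120348745, minus strand: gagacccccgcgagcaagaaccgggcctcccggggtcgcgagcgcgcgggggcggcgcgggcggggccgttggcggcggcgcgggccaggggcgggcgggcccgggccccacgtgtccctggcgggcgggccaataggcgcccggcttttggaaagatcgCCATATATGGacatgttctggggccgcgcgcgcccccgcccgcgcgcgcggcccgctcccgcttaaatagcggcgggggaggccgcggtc

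An exact box was found in Actc1 (CCAAATAAGG, from -47 to -38 relative to the start), in Acta1 (CCAAATATGG, from -73 to -64) and in Actg1 (CCATATATGG, from -90 to -81). Acta2 held no exact box in this window and had 2 boxes with 1 mismatch, CCCTATATGG from -84 and CCTTGTTTGG from -34. Of 32851 promoter windows of this length in the RefSeq table, 482 (1.47%) held an exact box and 6117 (18.6%) held a box with up to 1 mismatch. The RefSeq window of Srf itself held 2 exact boxes. The RefSeq start lay upstream of the first exon in the count tables, by 64 bases for Actc1, 39 for Acta1, 37 for Acta2 and 11 for Actg1. Box positions are thus relative to the RefSeq start only. A match to these letters describes the sequence and is not evidence of binding.

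**Figure D1:**
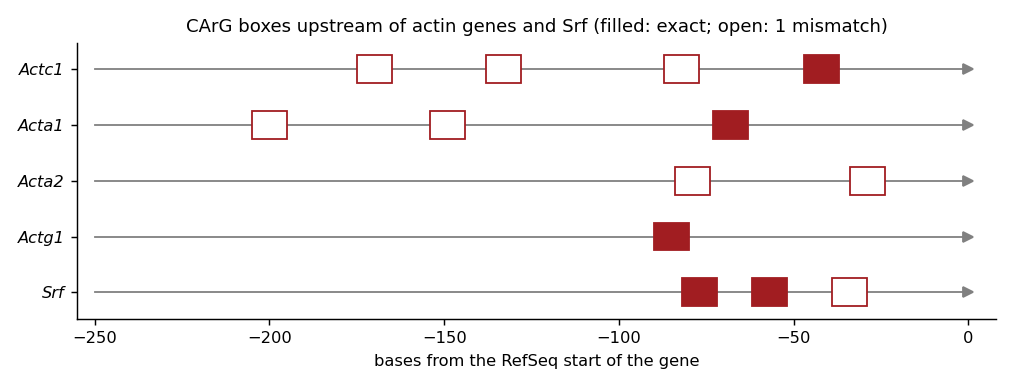
Position of CArG boxes (x axis, bases from the RefSeq start of the gene) in the 250 bases upstream of 4 actin genes and of Srf (rows). Filled blocks are exact boxes and open blocks have 1 mismatch. Actc1, Acta1 and Actg1 each have 1 filled block, Srf has 2, and Acta2 has open blocks only.

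Total counts per sample ranged from 9740389 to 23103460, and levels are given as CPM (counts scaled by library size, over all 12 samples). The 10 CM markers checked, which include Myh6, Tnnt2 and Ryr2, were all present, with a summed level of 107806 to 114423 CPM in the P14 CTRL samples and 79566 to 84438 CPM in the P14 KO samples. For P90 the sums were 106205 to 115606 CPM (CTRL) and 99563 to 102738 CPM (KO). Myh6, which the paper names as a direct SRF target, was the largest part of these sums. Its mean was 55692 CPM in P14 CTRL and 35495 CPM in P14 KO. At P14, 9 of the 10 log2 fold changes were below 0 and 2 were called lower by edgeR. They ranged down to -1.48 for Tnnc1, with Mb at -0.04 and Actn2 at 0.27. The 7 leukocyte markers summed to at most 12.7 CPM in any sample. Endothelial markers summed to between 168.6 and 418.6 CPM and fibroblast markers to between 52.4 and 350.3 CPM, with overlapping KO and CTRL samples at both stages. The 5 atrial markers (Myl7, Myl4, Sln, Nppa and Bmp10) summed to 56.7 to 501.8 CPM in the P14 CTRL samples and 304.5 to 1181 CPM in the P14 KO samples. Most of this was Nppa, which the paper uses as a cardiac stress marker. Myl7 was at most 1.41 CPM in P14 CTRL and at 24.1, 8.94 and 0.051 CPM in P14 KO. At P90 the sums were 194.5 to 325.2 CPM (CTRL) and 144.3 to 642.9 CPM (KO). There Myl7 was at most 45.3 CPM in CTRL and at 64.0 CPM in KO replicate 1. The part of these markers in the actin values was not tested. Y-linked genes had at least 3299 counts in 1 sample each of P14 CTRL, P14 KO and P90 CTRL and at most 2 counts in the other 9 samples. In bulk samples, fewer cells of a type and less RNA per cell cannot be told apart.

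Srf, the targeted gene, was at 63.9, 57.1 and 49.4 CPM in the P14 CTRL samples and at 32.1, 27.5 and 9.75 CPM in the P14 KO samples. The P90 CTRL samples had 71.1, 59.1 and 81.1 CPM of Srf, and the P90 KO samples 32.8, 28.9 and 28.1 CPM. Every KO sample lay below every CTRL sample of its stage, with P14 KO replicate 3 the lowest of the 12. The log2 fold change was -1.30 ± 0.36 (SE, edgeR adjusted p = 0.0628) at P14 and -1.23 ± 0.13 (edgeR adjusted p = 0.00347) at P90. Without P14 KO replicate 3 the P14 value was -0.92 (edgeR adjusted p = 0.0474). The same sample was also the lowest of its group for Actc1, Acta1, Acta2, Actb and Actg1. Mean Srf in KO was 40.7% of the CTRL mean at P14 and 42.5% at P90. The paper found less depletion in sorted cells than its SRF staining had led it to anticipate, and holds imperfect sorting to be the likely reason. KO values here are therefore those of sorted pools, and how many CMs in them kept SRF was not tested.

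In CTRL CMs at P14 the order of the actin genes by CPM per kilobase of exon, the scale on which genes are compared, was Actc1 (23014 ± 2359, SD, n = 3), Acta2 (611 ± 153), Acta1 (155 ± 59.8), Actg1 (96.0 ± 12.7), Actb (93.0 ± 41.4) and Actg2 (0.747 ± 0.338). Acta1 and its neighbour Actg1, and Actg1 and Actb, differed by less than the larger SD of the pair. At P90 the CTRL order was Actc1 (15692 ± 2015), Acta1 (620 ± 275), Acta2 (133 ± 53.3), Actb (105 ± 25.1), Actg1 (66.1 ± 5.88) and Actg2 (0.0993 ± 0.0916), where Acta2 and Actb did not differ beyond their spread. Skeletal alpha-actin and smooth muscle alpha-actin thus stood in opposite order at the 2 stages. Among all genes, Actc1 ranked 1st per kilobase in P14 CTRL, P14 KO and P90 CTRL and 5th in P90 KO.

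Loss of SRF at birth was accompanied by lower transcript levels of the main cardiac actin, of smooth muscle alpha-actin and of cytoplasmic gamma-actin at P14. Actc1, Acta2 and Actg1 were called lower, which is 3 of the 6 actin genes tested. In this comparison 8.59% of the 12546 genes tested were called, and 4.6% were called lower. Acta1, Actb and Actg2 did not pass the test. The CPM of KO and CTRL samples did not overlap for Actc1, Acta2 and Actg1, all lower in KO, as for 16.7% of all genes tested. The median log2 fold change of the 6 genes was -0.85, beside 0.0011 for all genes tested.

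Actc1, the alpha-actin that builds most cardiac thin filaments, was at 29986, 35773 and 30207 CPM in P14 CTRL and at 14261, 14697 and 7784.5 CPM in P14 KO. The groups were far apart, with the highest KO sample below every CTRL sample. The KO mean was 38.3% of the CTRL mean, and the log2 fold change was -1.39 ± 0.24 (SE, edgeR adjusted p = 0.0168). Without P14 KO replicate 1 or 2 the adjusted p from edgeR was 0.0547 or 0.0647, with log2 fold changes of -1.502 and -1.52.

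Acta1, the alpha-actin of skeletal muscle, is also made in the heart and is a familiar gene of the fetal and stressed myocardium. It was at 188.0, 318.9 and 157.6 CPM in P14 CTRL and at 225.5, 407.4 and 117.2 CPM in P14 KO. Replicate 2 was the highest sample of both groups, and the groups overlapped fully. The log2 fold change was 0.17 ± 0.42 (SE, edgeR adjusted p = 0.857), and it turned to -0.03 without P14 CTRL replicate 3 and to -0.35 without P14 KO replicate 2.

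Acta2, smooth muscle alpha-actin, is expressed in immature CMs as well as in vascular muscle. Its levels were 1136, 1333 and 794.1 CPM in P14 CTRL and 382.0, 328.7 and 183.9 CPM in P14 KO. The lowest CTRL sample was above the highest KO sample by a wide gap. The KO mean was 27.4% of the CTRL mean. The log2 fold change was -1.87 ± 0.29 (SE, edgeR adjusted p = 0.0128), and 22 of the 12546 genes tested had a more negative value. Without P14 KO replicate 2 the adjusted p from edgeR was 0.0599.

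Smooth muscle and mural cell genes were checked beside Acta2, since vascular cells also make it. At P14 the 7 smooth muscle markers that are themselves known to respond to SRF (Myh11, Tagln, Cnn1, Smtn, Mylk, Lmod1 and Synpo2) summed to 381.2 to 509.1 CPM in CTRL and 334.7 to 370.4 CPM in KO, with 0 of the 6 tested called by edgeR, 1 by DESeq2 and 2 at an unadjusted p under 0.05 in edgeR. Over all genes at P14, DESeq2 called 15.2%, and 3206 of 12546 had an unadjusted p under 0.05 in edgeR. The 7 other mural markers (Rgs5, Kcnj8, Notch3, Pdgfrb, Cspg4, Abcc9 and Vtn) summed to 419.6 to 612.6 CPM in CTRL and 451.0 to 523.1 CPM in KO and so overlapped, with Cspg4 called higher (log2 fold change 1.34 ± 0.23, edgeR adjusted p = 0.0157). At P90 the first list overlapped, at 382.7 to 443.6 CPM in CTRL and 381.1 to 426.5 CPM in KO, and the second did not, at 541.6 to 673.7 CPM in CTRL and 405.2 to 520.2 CPM in KO. Smtn and Synpo2 made up most of the first sum, and Abcc9 most of the second, so the sums mainly followed these genes. The first sum did not overlap at P14 and was lower in KO. Of the 6 log2 fold changes tested in the first list at P14, 4 were below 0. Among these were Smtn (-0.42 ± 0.14, SE) and Synpo2 (-0.43 ± 0.16). Myh11 (0.22 ± 0.50) and Tagln (0.18 ± 0.38) were above 0. At P90 Abcc9 was at 550.8, 565.8 and 462.2 CPM in CTRL and at 329.9, 417.8 and 394.2 CPM in KO. Of the 7 log2 fold changes of the second list at P90, 2 were below 0. None of these markers was at 0 in all samples of a group, and their part in the Acta2 values was not tested.

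Actg2, the gamma-actin of visceral smooth muscle, was barely detected, with 10, 25 and 21 counts in the P14 CTRL samples and 33, 11 and 24 counts in the P14 KO samples. The groups overlapped, and the log2 fold change was 0.24 ± 0.55 (SE, edgeR adjusted p = 0.837). It turned to -0.10 without P14 CTRL replicate 1 and to -0.16 without P14 KO replicate 1.

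Actb, cytoplasmic beta-actin and a widely used reference transcript, was at 249.2, 93.5 and 184.1 CPM in P14 CTRL and at 151.9, 175.3 and 99.9 CPM in P14 KO. The CTRL samples alone spanned the whole KO range. The log2 fold change was -0.31 ± 0.33 (SE, edgeR adjusted p = 0.629), and without P14 CTRL replicate 1 it was 0.03.

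Actg1, cytoplasmic gamma-actin, was at 206.5, 180.5 and 158.3 CPM in P14 CTRL and at 76.7, 92.2 and 37.0 CPM in P14 KO. The highest KO value was under the lowest CTRL value. The KO mean was 37.8% of the CTRL mean, close to the figure for Actc1, and the log2 fold change was -1.41 ± 0.29 (SE, edgeR adjusted p = 0.0252). The adjusted p from edgeR was 0.064 without P14 CTRL replicate 1, 0.0844 without P14 KO replicate 1 and 0.0599 without P14 KO replicate 2. Of the words of 75 bases in the Actg1 transcript, 54.5% also occur in transcripts of other genes, chiefly the pseudogenes Gm12715 and Gm8399, against at most 2.6% for the other actin genes. With words of 50 bases it was 56.7% for Actg1, 14.2% for Actb and at most 2.22% for the rest. Counts of Actg1, and to a lesser degree Actb, thus depend on how reads with several matches were treated, which is not given in the sources used here.

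**Figure D2:**
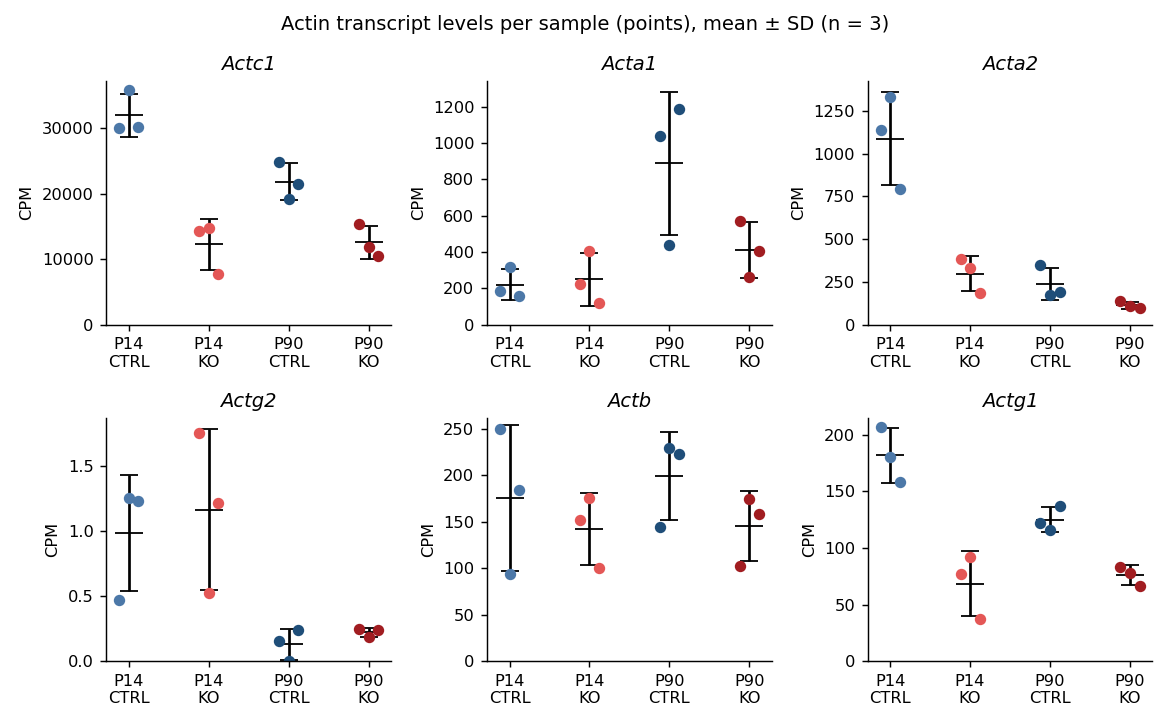
Transcript level (y axis, CPM on a linear scale from 0, one panel per gene) of the 6 actin genes in the 4 groups. Coloured points are the 3 samples, the long dash is their mean and the whiskers are ± SD. KO and CTRL points separate at both stages for Actc1, Acta2 and Actg1 and overlap at both stages for Acta1, Actb and Actg2.

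In the adult model Actc1 and Actg1 were called lower in KO CMs at P90, 2 of the 5 actin genes tested, where 0.39% of the 11808 genes tested were called and 0.152% were called lower. Acta2 and Acta1 had larger negative fold changes but wider spread, and they and Actb did not pass the test. Actg2 had too few counts to be tested. KO samples lay wholly below CTRL samples for Actc1, Acta2 and Actg1, as for 11.2% of all genes tested. The median log2 fold change of the 5 genes was -0.79, beside 0.0057 for all genes tested.

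Actc1 was at 24793, 19235 and 21407 CPM in P90 CTRL and at 15370, 11808 and 10520 CPM in P90 KO. The groups did not overlap, with the lowest CTRL sample above the highest KO sample. The KO mean was 57.6% of the CTRL mean, and the log2 fold change was -0.79 ± 0.14 (SE, edgeR adjusted p = 0.0494). With any 1 of P90 CTRL replicates 1, 2 and 3 or P90 KO replicates 2 and 3 left out the adjusted p from edgeR was between 0.0592 and 0.225, and with all 12 samples in one fit it was 0.214.

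Acta1 was at 1037, 441.8 and 1188 CPM in P90 CTRL and at 571.7, 261.0 and 404.0 CPM in P90 KO. P90 CTRL replicate 2 lay between P90 KO replicates 1 and 3, so the groups overlapped. The KO mean was 46.4% of the CTRL mean, and the log2 fold change was -1.10 ± 0.34 (SE, edgeR adjusted p = 0.152).

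Acta2 was at 346.1, 172.2 and 193.7 CPM in P90 CTRL and at 136.7, 108.0 and 95.01 CPM in P90 KO. No KO sample reached a CTRL sample. The log2 fold change was -1.06 ± 0.23 (SE, edgeR adjusted p = 0.0762), with 1 CTRL sample well above the others.

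Actb was at 144.5, 229.7 and 223.0 CPM in P90 CTRL and at 102.5, 174.4 and 158.8 CPM in P90 KO, and the groups overlapped. Its log2 fold change was -0.45 ± 0.21 (SE, edgeR adjusted p = 0.311). Actg1 was at 121.9, 115.9 and 137.5 CPM in CTRL and at 83.5, 78.1 and 66.9 CPM in KO. The Actg1 groups did not overlap and were among the tightest of the family. The KO mean of Actg1 was 60.9% of the CTRL mean, and its log2 fold change was -0.71 ± 0.11 (SE, edgeR adjusted p = 0.0280). This adjusted p was 0.0529 and 0.135 without P90 CTRL replicates 1 and 3, 0.142 and 0.0514 without P90 KO replicates 2 and 3, and 0.272 with all 12 samples in one edgeR fit. Actg2 had 3, 0 and 3 counts in the P90 CTRL samples and 4, 4 and 3 counts in the P90 KO samples.

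**Figure D3:**
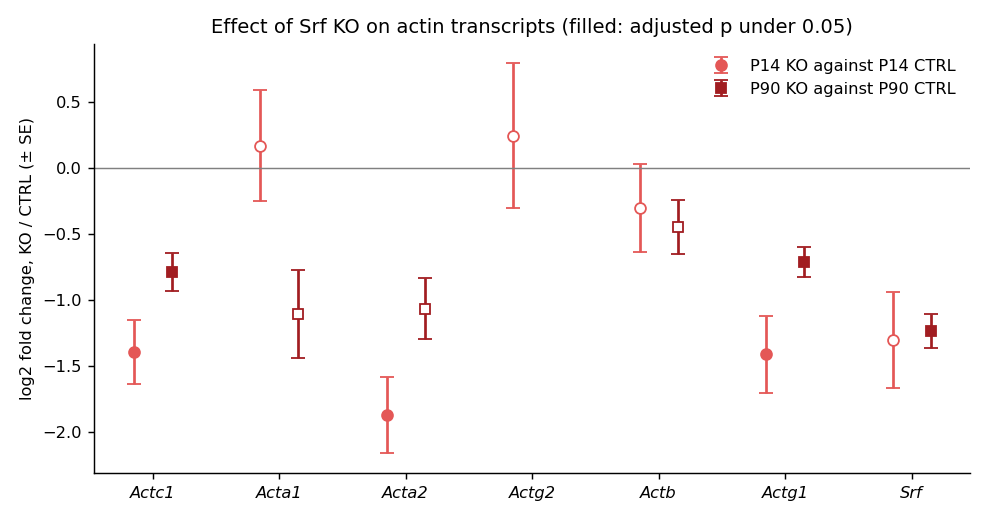
Log2 fold change of KO against CTRL (y axis, ± SE from edgeR) for the actin genes and Srf (x axis) at P14 (circles) and P90 (squares). Filled symbols passed the test at an adjusted p under 0.05, and Actg2 has no P90 symbol because it was not tested there. At P14 Acta2 has the most negative value (-1.87), and Acta1 is near 0 at P14 (0.17) and at -1.10 at P90.

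Whether the actin response differed between the stages was asked directly, as the P14 effect minus the P90 effect in a fit of all 12 samples. By edgeR 0 of the 6 actin genes passed at the adjusted threshold and 0 passed at an unadjusted p under 0.05, while 1.78% of the 12841 genes tested were called. DESeq2 also called 0 of the 6, with 2 at an unadjusted p under 0.05, and 9.54% of the 9598 genes it tested. At an unadjusted p under 0.05 in edgeR there were 2440 of the 12841 genes. The difference was -0.59 ± 0.30 for Actc1 (SE, edgeR adjusted p = 0.314), -0.80 ± 0.42 for Acta2 (edgeR adjusted p = 0.327) and -0.69 ± 0.34 for Actg1 (edgeR adjusted p = 0.292). Acta1 had a positive difference of 1.28 ± 0.63 (SE, edgeR adjusted p = 0.293), the opposite sign to those 3 genes. For Actb (0.15 ± 0.45) and Actg2 (-0.35 ± 0.98) the difference was within its SE. The P14 and P90 samples were held in separate tables and differed in the time from virus to collection. Stage cannot be told apart from that time or from any difference in handling between them.

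P14 and P90 CTRL CMs differed in which of the minor actins they carried. Their virus was given at P1 and at P60, so age cannot be told apart from time since virus or from handling. Acta1 was called higher and Actc1, Acta2 and Actg1 lower in P90 CTRL than in P14 CTRL, 4 of the 5 actin genes tested, in a comparison where 29.3% of the 12294 genes tested were called. Acta1 rose by 2.01 ± 0.37 on the log2 scale (SE, edgeR adjusted p = 0.00466), and Acta2 fell by 2.19 ± 0.28 (SE, edgeR adjusted p = 0.000891). The P14 and P90 CTRL samples of these 4 genes did not overlap, as for 44.9% of all genes tested. Actc1 (-0.55 ± 0.13, edgeR adjusted p = 0.0116) and Actg1 (-0.54 ± 0.13, edgeR adjusted p = 0.0159) moved less. Their calls were lost without some libraries: Actc1 without P90 CTRL replicate 2 or 3 (edgeR adjusted p = 0.0692 and 0.0663), and Actg1 without P14 CTRL replicate 1 or P90 CTRL replicate 1 or 2 (edgeR adjusted p = 0.0662, 0.0654 and 0.0612).

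In KO CMs the same comparison of stages called Acta2 lower at P90 (log2 fold change -1.39 ± 0.24, edgeR adjusted p = 0.00112). Actg2 was also called lower (edgeR adjusted p = 0.00568), from 11 to 33 counts per sample at P14 to 3 or 4 at P90. These are 2 of 6 actin genes, with 56.8% of the 12417 genes tested called. Actc1, at a mean of 12248 ± 3871 CPM in P14 KO and 12566 ± 2513 CPM in P90 KO (SD, n = 3), differed between the KO groups by 0.04 ± 0.24 on the log2 scale (SE, edgeR adjusted p = 0.892), and its sign turned with total-count scaling (-0.25). Acta1 was at 0.73 ± 0.40 (SE, edgeR adjusted p = 0.152). Each KO group enters this comparison and its own comparison with CTRL, so these values are not independent of those above.

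The actin genes together took 3.26%, 3.56% and 3.20% of all counts in P14 CTRL and 1.70%, 1.802% and 0.976% in P14 KO. At P90 the CTRL samples gave 2.37%, 1.91% and 2.15%, and the KO samples 1.497%, 1.17% and 1.10%. KO samples were below CTRL samples at both stages. The summed level was 33656 ± 3504 CPM in P14 CTRL and 13008 ± 4154 CPM in P14 KO (SD, n = 3), and 23262 ± 3126 CPM in P90 CTRL and 13313 ± 2624 CPM in P90 KO. On the log2 scale the sum differed by -1.43 at P14 and by -0.81 at P90, each with an exact two-sided permutation p = 0.1, which is the smallest that 3 samples against 3 allow. Actc1 carried 95.6% of the summed difference at P14 and 92.9% at P90.

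Each isoform's share of the actin counts was computed per sample, a measure that does not depend on library scaling. Actin counts per sample ranged from 141785 to 754203, so 95% Wilson intervals on a share were at most ± 0.128 percentage points wide for Actc1 and less for the others, for counting error only. Actc1 made up 94.4%, 94.9% and 95.9% of actin counts in P14 CTRL and 94.5%, 93.6% and 94.7% in P14 KO. At P90 the CTRL samples had 93.8%, 95.3% and 92.5%, and the KO samples 94.5%, 95% and 93.6%. The share of Actc1 overlapped between KO and CTRL at both stages, while its level was lower in KO at both.

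The composition of the remaining few percent did separate the P14 groups. Acta1 made up 0.592%, 0.846% and 0.500% of actin counts in P14 CTRL and 1.49%, 2.59% and 1.43% in P14 KO. No KO sample overlapped a CTRL sample, and the mean share was 0.646% ± 0.179 for CTRL against 1.84% ± 0.656 for KO (SD, n = 3, exact two-sided permutation p = 0.1). At P90 the share of Acta1 was 3.92%, 2.19% and 5.13% in CTRL and 3.52%, 2.10% and 3.59% in KO, with overlap (exact permutation p = 0.4). Actb made up 0.785%, 0.248% and 0.584% in P14 CTRL and 1.01%, 1.12% and 1.21% in P14 KO, again without overlap (exact permutation p = 0.1). At P90 the means for Actb were 0.883% ± 0.304 in CTRL and 1.15% ± 0.449 in KO, with overlap.

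The share of Acta2 was 3.21% ± 0.598 in P14 CTRL and 2.29% ± 0.222 in P14 KO (SD, n = 3), and the samples overlapped narrowly, with KO replicate 1 at 2.53% and CTRL replicate 3 at 2.52%. The P90 CTRL samples had 1.00% ± 0.268 and the P90 KO samples 0.852% ± 0.0155. Actg1 held between 0.450% and 0.650% of actin counts in every one of the 12 samples. Actg2 was at most 0.0147% in any sample. Over the 28 comparisons of KO with CTRL made on shares, sums and ratios, no Benjamini-Hochberg adjusted value from the exact permutation tests could pass 0.05.

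**Figure D4:**
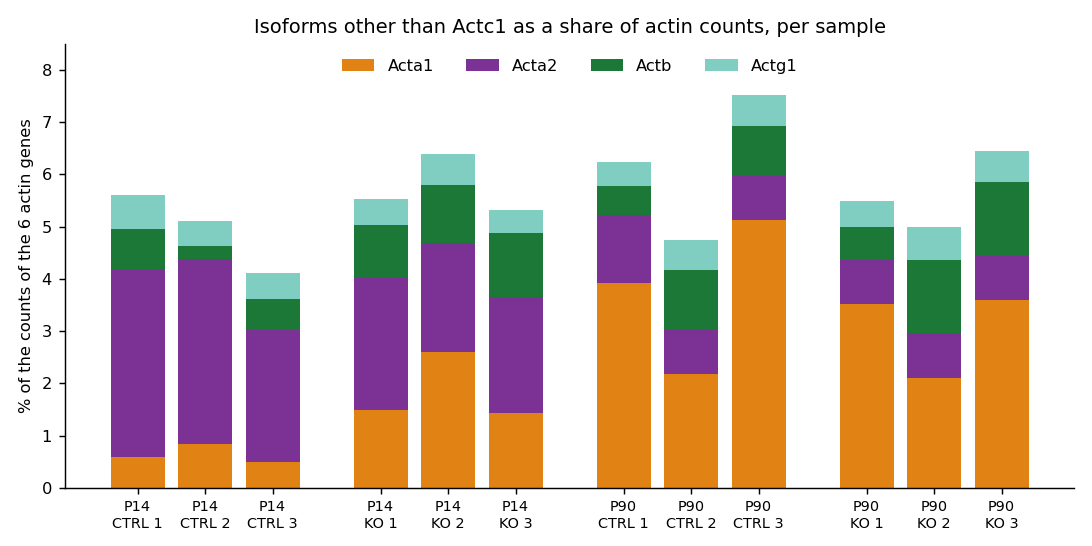
Share of the counts of the 6 actin genes (y axis, percent, from 0) held by Acta1, Acta2, Actb and Actg1 in each of the 12 samples (x axis), stacked. The part up to 100% is Actc1, and Actg2 is too small to draw. The Acta1 block is under 1% in all P14 CTRL samples, between 1.43% and 2.59% in P14 KO and between 2.10% and 5.13% at P90.

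The sarcomeric alpha-actins were also set against each other. There were 159.5, 112.2 and 191.7 Actc1 counts per Acta1 count in the P14 CTRL samples and 63.2, 36.1 and 66.4 in the P14 KO samples, without overlap. At P90 there were 23.9, 43.5 and 18.02 in CTRL and 26.9, 45.3 and 26.0 in KO, with overlap. On the log2 scale KO differed from CTRL by -1.5 at P14 (exact permutation p = 0.1) and by 0.25 at P90 (exact permutation p = 0.5). The P14 difference minus the P90 difference was -1.75, with p = 0.025 in an exact two-sided test that permuted genotype labels within each stage and so takes no effect at either stage as its null, and 0.35 after Benjamini-Hochberg adjustment over the 14 measures tested in this way. For the cytoplasmic actins, log2 of Actg1 over Actb counts was 0.15 ± 0.69 for CTRL and -1.12 ± 0.28 for KO (SD, n = 3, exact permutation p = 0.1), without overlap at P14. At P90 it was -0.64 ± 0.37 and -0.90 ± 0.53 with overlap (exact permutation p = 0.5), and the difference between the stages had an exact permutation p = 0.215.

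**Figure D5:**
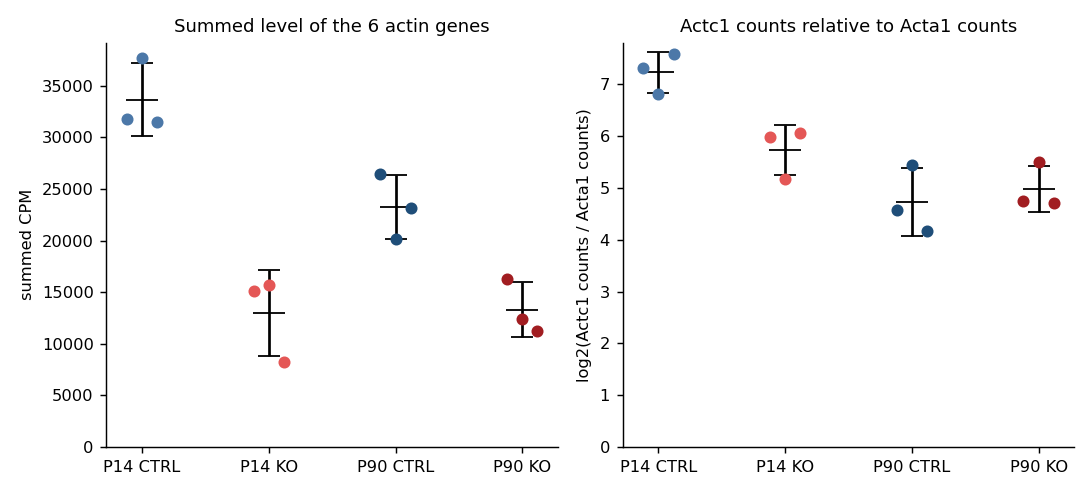
Summed level of the 6 actin genes (left, CPM) and log2 of Actc1 counts over Acta1 counts (right) in the 4 groups, with the 3 samples as points, the mean as a long dash and ± SD as whiskers. KO points lie below CTRL points for the sum at both stages, while for the ratio they separate at P14 and overlap at P90.

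Genes with the profile most like each actin gene were sought among 8094 other genes with a mean of at least 10 CPM, as the root mean square (RMS) difference of log2 CPM over the 12 samples after centring each stage. Nearest to Actc1 were Myl3, the ventricular essential myosin light chain (RMS difference 0.103), Tnnc1, cardiac troponin C (0.138), and Ptpla (0.143), while the Actc1 profile itself had an RMS of 0.637 around its stage means. Myl3 and Tnnc1 were also close to Actg1 (0.175 and 0.197), behind Cnn2, calponin 2 (0.168). Nearest to Acta2 were Fbxl22 (0.204), Itgb1bp2, which encodes melusin (0.266), and Ckm, muscle creatine kinase (0.276). For Actb they were Dock9 (0.221), Crim1 (0.231) and Dhdh (0.255), beside a smaller RMS of 0.449 for Actb itself.

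The nearest genes of Acta1 and Actg2 lay further off in RMS difference, which was not scaled to how much each profile varied. The nearest genes to Acta1 were Pkdcc (0.395), Fkbp5 (0.444) and Nppb, which encodes B-type natriuretic peptide (0.456), beside an RMS of 0.689 for Acta1 itself. The nearest to Actg2 were Rfc2 (0.465), H2afj (0.468) and Dedd2 (0.473), beside an RMS of 0.600 for Actg2 itself. Within the family, Actc1 lay close to Actg1 (0.169) and Acta2 (0.269) and far from Acta1 (0.677) and Actb (0.671). These are descriptions over libraries that share their group structure and depth, with no test.

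By edgeR most transcripts of genes whose products handle actin did not pass the test at P14. Of all genes tested, edgeR called 8.59%, with 4.6% called lower, and DESeq2 called 15.2%. At an unadjusted p under 0.05 in edgeR there were 3206 of the 12546 genes. Among 28 tested genes for monomer binding and filament assembly, 3 were called lower and 1 higher, with a median log2 fold change of 0.10. DESeq2 called 7 of the 28, and 11 had an unadjusted p under 0.05 in edgeR. Dstn (destrin, which severs filaments; -0.86 ± 0.19, edgeR adjusted p = 0.0289), Capzb (a capping protein subunit; -0.60 ± 0.11, edgeR adjusted p = 0.0186) and Wdr1 (a cofactor of filament disassembly; -0.54 ± 0.12, edgeR adjusted p = 0.0304) fell, and Gsn (gelsolin; 0.69 ± 0.14, edgeR adjusted p = 0.0235) rose. Each of these calls was lost in some of the 6 fits that left out 1 sample: 3 fits for Dstn and Capzb, 4 for Gsn and 5 for Wdr1, with edgeR adjusted p up to 0.119. Scaled to total counts, Wdr1 was at -0.33 (edgeR adjusted p = 0.0744). Of 9 Arp2/3 complex genes, which nucleate branched filaments, Arpc1a was called higher (0.45 ± 0.11, edgeR adjusted p = 0.0394), a call lost in 5 of the 6 fits without 1 sample (edgeR adjusted p up to 0.138). DESeq2 called 1 of the 9, and 2 had an unadjusted p under 0.05 in edgeR. Of 6 genes for actin processing and modification, Mical2, which oxidises actin, was called lower (-0.54 ± 0.10, edgeR adjusted p = 0.0209). That call was lost in 4 of the 6 fits without 1 sample (edgeR adjusted p up to 0.109) and with total-count scaling (-0.33, edgeR adjusted p = 0.0715). DESeq2 called 1 of these 6 genes, and 2 had an unadjusted p under 0.05 in edgeR. Among 14 genes of the CCT chaperonin and prefoldin, which fold actin, edgeR called 0 with 2 at an unadjusted p under 0.05, DESeq2 called 2, and the median log2 fold change was -0.12. Among 7 actin-related protein genes edgeR and DESeq2 called 0, with 1 at an unadjusted p under 0.05.

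On the side of the regulators, Myocd (myocardin, the muscle cofactor of SRF) was called higher at P14, from 185.3 ± 24.0 to 337.8 ± 44.2 CPM (SD, n = 3, log2 fold change 0.86 ± 0.14, edgeR adjusted p = 0.0153). Mkl2, a myocardin-related factor that binds actin monomer, was also called higher (0.52 ± 0.13, edgeR adjusted p = 0.0443). Without 1 sample the call of Myocd was lost in 2 of 6 fits and that of Mkl2 in 5 of 6 (edgeR adjusted p up to 0.148), and with the gene length trend removed and the replicate block Mkl2 had an edgeR adjusted p = 0.055. These were 2 of 9 tested genes for SRF, its cofactors and actin-sensing factors, beside 8.59% of all genes called. DESeq2 called 3 of the 9, and 4 had an unadjusted p under 0.05 in edgeR. Among 31 textbook SRF targets of the cytoskeleton other than actins, 1 was called lower and 5 higher, with a median of 0.07, beside 4.6% of all genes called lower and 3.99% called higher. DESeq2 called 8 of the 31, beside 15.2% of all genes. In edgeR 11 of the 31 had an unadjusted p under 0.05, beside 3206 of 12546 genes. Tpm1 (alpha-tropomyosin; -0.80 ± 0.17, edgeR adjusted p = 0.0276) fell, and Itga5 (0.90), Fhl1 (0.88), Flnc (0.80), Zyx (0.75) and Csrp3 (0.57) rose on the log2 scale. Without 1 sample the call of Tpm1 was lost in 5 of 6 fits (edgeR adjusted p up to 0.105), that of Itga5 in 2, those of Flnc and Zyx in 3 and those of Fhl1 and Csrp3 in 4.

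Of 14 thin filament partners of sarcomeric actin, 2 were called lower and 3 higher at P14, beside 4.6% and 3.99% of all genes. DESeq2 called 9 of the 14, beside 15.2% of all genes. In edgeR 10 of the 14 had an unadjusted p under 0.05, beside 3206 of 12546 genes. Tnnc1 fell along with Actc1, from 2658 ± 498 to 959 ± 286 CPM (SD, n = 3, log2 fold change -1.48 ± 0.24, edgeR adjusted p = 0.0149), as did Tpm1. Tnni1, the slow skeletal troponin I of the immature heart, rose from 60.7 ± 27.4 to 399.5 ± 164.9 CPM (2.72 ± 0.40, edgeR adjusted p = 0.0116). Xirp2 (1.08) and Nrap (0.75), which encode actin-binding proteins of growing myofibrils and cell junctions, also rose. Without 1 sample Tnni1 was called in 6 of 6 fits, Tnnc1 and Xirp2 in 4 and Nrap in 3. The median of the 14 was 0.35, with 5 of 14 values below 0.

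At P90, where edgeR called 0.39% of all genes tested, the lists held 3 different genes that it called, Lmod2, Pdlim7 and Srf. DESeq2 called 4 of the assembly genes, 5 of the SRF targets, 2 of the thin filament partners and 1 regulator, beside 3.79% of all genes it tested. In edgeR 8, 10, 6 and 1 of them had an unadjusted p under 0.05, beside 1910 of all 11808 genes. Lmod2 (leiomodin 2, which elongates thin filaments) was called higher, from 326.4 ± 5.39 to 463.7 ± 33.5 CPM (SD, n = 3, log2 fold change 0.51 ± 0.09, edgeR adjusted p = 0.0485), and is the member called in both the list of 27 assembly genes tested and the list of 13 thin filament partners tested. Pdlim7 was the member called among the 31 SRF targets, and it was lower (-1.08 ± 0.14, edgeR adjusted p = 0.00855). Without 1 sample the call of Lmod2 was lost in 5 of 6 fits (edgeR adjusted p up to 0.225) and that of Pdlim7 in 2 (up to 0.0642). Srf itself was the member called among the 9 regulators. Of 9 Arp2/3 genes edgeR and DESeq2 called 0, but 6 had an unadjusted p under 0.05 and the median log2 fold change was 0.26. Of 14 folding genes edgeR and DESeq2 called 0, with 3 at an unadjusted p under 0.05. Of 6 processing genes edgeR called 0 and DESeq2 1, and of 7 actin-related protein genes both called 0, with 1 and 0 at an unadjusted p under 0.05.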

How the data were processed

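Counts of reads per gene were deposited by the authors as whole numbers, not normalized, in 2 tables, one per stage. Reads came from one end of Nextera XT libraries made from SMART-Seq v4 cDNA. Per the submitters' processing notes and the study's methods, they were aligned to mm10 with STAR 2.5.3a and counted with featureCounts (Subread 1.5.2); CASAVA 1.8 is also named. Strand and multiple-match settings are not given in the sources used here. The authors tested with DESeq2.

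Here counts were fitted with edgeR 4.0.16 in R 4.3.3 (filterByExpr, TMM scaling, quasi-likelihood F-test, Benjamini-Hochberg over all genes tested, threshold 0.05), each stage on its own 6 samples without a replicate block. SEs come from the fold change and F statistic. DESeq2 1.42.0, other scalings, no filter, gene length and replicate terms, and leaving out each sample were tried. CPM used TMM-scaled library sizes over all 12 samples; profiles used log2 CPM with a prior count of 2. Samples were grouped by their labels, which state biological replicates. Scripts were tested on simulated data. Total counts ranged from 9740389 to 23103460, and 3 counts corresponded to 0.130 to 0.308 CPM; amplified reads carry no molecular identifiers, so intervals cover counting error only.

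Genes named are the 6 actins, Srf, up to 3 called genes per list and stage with the largest change, the 3 genes most like each actin, and markers. Wdr1, Flnc, Zyx, Csrp3 and Nrap were named after their values were seen, to complete counts. Members and lists were chosen with earlier results of these data known. Promoter windows are RefSeq's (GRCm38.p6). Words shared between transcripts were sought in GENCODE transcripts.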

Additional observations from a re-analysis of the deposited data

How the results depend on the processing

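At P14 all 8 planned settings other than leaving out a sample kept the 3 actin calls, and leaving out 1 sample left between 0 and 3. At P90, where 2 were called, leaving out 1 sample left between 0 and 2, a fit of all 12 samples called 0, and 5 were called without the filter on low counts, with the replicate block, and with the replicate block and the gene length trend removed. Without the filter the edgeR adjusted p was 5.5e-19 for Acta1 and 2.4e-17 for Acta2, beside 0.152 and 0.0762 in the main fit. Such values are implausibly small for 3 samples against 3, and the calls of that fit were not relied on. The replicate block called 2 actin genes (Acta1 1.12, edgeR adjusted p = 0.0343, and Acta2 -0.89, edgeR adjusted p = 0.0347) for the difference between stages, and 1 with the gene length trend removed as well. Between CTRL stages 4 were called and leaving out 1 sample left between 2 and 4. With the replicate block Actc1 lost its call there (edgeR adjusted p = 0.0554).

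Same-numbered KO and CTRL samples correlated by 0.047, 0.148 and 0.36 at P14 and by 0.181, -0.0003 and 0.054 at P90. Differently numbered ones correlated by -0.241 to 0.151 at P14 and by -0.253 to 0.173 at P90. The numbers were not taken to pair samples, a choice that these values do not settle, and results with the replicate block are given above. Over all genes, calls at P14 were 1078 by edgeR, 1832 by DESeq2, 1724 with total counts and 2088 with all 12 samples, and 111 to 1004 without 1 sample. At P90 they were 46, against 343 by DESeq2, 701 without the filter, 655 with the replicate block, 85 and 205 with the gene length trend removed without and with the block, 3 with all 12 samples and 6 to 51 without 1 sample. For the difference between stages they were 228, against 916 by DESeq2, 474 without the filter, 687 with the replicate block and 4 to 377 without 1 sample, and between CTRL stages 3607, against 2067 to 4768 without 1 sample.

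Scaling to total counts moved the median log2 fold change of all genes to 0.22 at P14, 0.17 for the difference between stages, -0.13 between CTRL stages and -0.32 between KO stages. The split of lower and higher calls went from 577 and 501 to 319 and 1405 at P14, from 123 and 105 to 60 and 199 for the difference between stages, from 1828 and 1779 to 2368 and 1314 between CTRL stages, and from 3615 and 3437 to 5560 and 2001 between KO stages. With it P14 Actc1, Acta2 and Actg1 had log2 fold changes of -1.18, -1.66 and -1.20 and stayed called.

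Signs turned only among values that did not pass the test. Between KO stages these were Actc1 (-0.25 with total counts, -0.14 and -0.092 with the gene length trend removed without and with the block), Actb (-0.25, -0.047 and -0.055) and Actg1 (-0.13 with total counts), and for the difference between stages Srf (0.10 with total counts). Leaving out 1 sample gave, between KO stages, -0.20 to 0.19 for Actc1, -0.17 to 0.24 for Actb and -0.14 to 0.43 for Actg1; at P14, -0.35 to 0.53 for Acta1, -0.16 to 0.61 for Actg2 and -0.61 to 0.027 for Actb; for the difference between stages, -0.82 to 0.048 for Actg2, -0.15 to 0.49 for Actb and -0.37 to 0.29 for Srf; and between CTRL stages, -0.14 to 0.54 for Actb. Shares, sums and ratios kept their direction with counts divided by exon length. The causes were not tested. With 3 samples against 3, the exact test of KO against CTRL within a stage could not go below p = 0.1, and the counts of Actg2 at P90 were too low to compare.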
